A study of Mus musculus with 30 samples.

Results

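*Mest*, *Peg10* and *Sgce* are imprinted genes of mouse chromosome 6, and their transcript levels were followed across the presumptive retinal pigment epithelium (pRPE) and the optic stalk (OS) of E12 embryos. The members were chosen by name as paternally expressed genes of the proximal part of the chromosome, and they are 3 of the 56484 gene symbols listed in the E12 count table. The study asked how the chromatin remodelling subunit Smarcc1 acts in the patterning of the OS, and at E12 it sampled control embryos to learn how the OS and the pRPE differ by position. The method was Geo-seq, in which a laser cuts small pieces of known position out of frozen sections and the RNA of each piece is amplified and sequenced as a library. The 30 libraries came from 10 regions in 2 batches, A (14 libraries) and B (16 libraries), as the labels name them.

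On the dorsal side, 3 distal and 4 proximal libraries were cut from the pRPE, and 3 distal, 2 middle and 2 proximal libraries from the OS. On the ventral side there were 4 distal and 3 proximal libraries of the pRPE, and 3 distal, 4 middle and 2 proximal libraries of the OS. All were labelled with the genotype Control, embryonic day 12. In the study's methods, controls are litter mates without the *Dct-Cre* transgene, from lines that carry loxP-flanked *Smarcc1* (Baf155) or *Smarcc2* (Baf170) alleles and a Z/EG reporter on a C57Bl6/J background, so a control may hold floxed alleles or the reporter. The allele list of each library was not used here. The methods give 4 control embryos at E12, so libraries share embryos. The library numbers fall in 4 blocks, in which the last digit goes with the region. The study's record of the mouse behind each sample was not used here, and whether a block is an embryo was not tested. The p-values below measure the spread between libraries, part of which lies within an embryo, and do not treat the embryo as the unit.

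Imprinting silences a gene on the chromosome inherited from a given parent, and it is set by DNA methylation at control regions that differ between egg and sperm. Many imprinted genes act in fetal growth, the placenta and the nervous system, and they lie in clusters in which genes with opposite parental expression stand next to each other. The counts were not split by parental allele, so they measure how much transcript was listed for each gene and not from which chromosome it came.

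*Mest*, mesoderm specific transcript (ENSMUSG00000051855), encodes a protein of the alpha/beta hydrolase fold family and lies on the plus strand at chr6:30723547-30748465 in GRCm38. *Peg10*, paternally expressed 10 (ENSMUSG00000092035), is derived from a retrotransposon, is needed for the placenta, and lies on the plus strand at chr6:4747306-4760517. *Sgce*, which encodes epsilon-sarcoglycan, a membrane glycoprotein (ENSMUSG00000004631), lies on the minus strand at chr6:4674350-4747207. *Sgce* and *Peg10* are transcribed away from each other, with starts 99 bases apart, whereas *Mest* starts 25976241 bases further along the chromosome. In the annotation the 3 genes held 3945, 6667 and 10612 exon bases. The far end of *Mest* overlaps *Copg2*, a coat protein subunit gene on the opposite strand, by 912 bases, and the library kit named in the labels does not mark strand, so reads of this overlap cannot be told apart.

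The stretch before an annotated start of *Mest* is shown with its CpG pairs, the sites on which DNA methylation acts, because *Mest* carried nearly all the transcript of the 3 genes. It is taken from RefSeq for GRCm38.p6, chr6:30737800-30738049 on the plus strand, and ends 1 base before the start at 30738050. The gene as annotated begins further upstream and has several starts, so the window lies inside the span given above. CpG pairs are in capitals.
Mest upstream: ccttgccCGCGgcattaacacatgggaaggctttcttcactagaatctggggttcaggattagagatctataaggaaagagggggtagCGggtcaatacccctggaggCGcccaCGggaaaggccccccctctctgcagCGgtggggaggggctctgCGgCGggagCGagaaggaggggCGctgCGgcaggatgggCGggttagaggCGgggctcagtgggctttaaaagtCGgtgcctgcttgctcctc
This window held 14 CpG pairs and 62.4% G or C, and 70.6% of the 32851 windows of the same 250 bases in the RefSeq table held fewer CpG pairs (median 6). The window before another start of *Mest* in that table, chr6:30733256-30733505, held 7 CpG pairs and 60.8% G or C, and 53.7% of the windows held fewer. Which start the counts came from was not tested. Searched on both strands, the window shown held GGGCGG 1 time, TATAAA 0 times and CCAAT 0 times, motifs that stand in 32.7%, 12.4% and 33.8% of all windows. *Peg10* and *Sgce* were not matched in the table.

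Inside the *Mest* transcription unit lies *Mir335*, a microRNA gene read from the same strand. Its mature arms are shown because they belong to the same locus as the most abundant of the 3 transcripts; bases 2 to 8, the seed, are in capitals.
mmu-miR-335-5p, chr6:30741314-30741336: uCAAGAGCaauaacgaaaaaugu
mmu-miR-335-3p, chr6:30741354-30741375: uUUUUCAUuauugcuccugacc
The *Mir335* row had counts in 3 of the 30 libraries, 10 counts in all and at most 8 in a library. The libraries were not made for small RNA, so the value is the count listed under the symbol and not the amount of mature microRNA.

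Library totals lay between 1421918 and 6041021 counts, with 1730 to 9886 detected genes and 30.4% to 55.4% of counts on mitochondrial genes. Of all nuclear genes listed, 55.3% had no count in any library, and the 8337 genes with more than 10 counts in at least 3 libraries had counts in a median of 11 libraries. The labels of the tissues were set against marker lists. Of 10 pigment epithelium markers, *Tyr*, *Tyrp1* and *Dct* were at 0 in every library, and the summed level of the list ranged from 174 to 2648 CPM (counts scaled to a common library size) in the pRPE and from 0 to 2424 in the OS. Of 6 stalk markers all had a count, and their summed level ranged from 0 to 42.6 CPM in the pRPE and from 0 to 872 in the OS. Of the markers tested between the tissues, *Gpnmb* (log2 fold change 5.17, adjusted p = 0.0372 in edgeR) and *Pmel* (4.99, adjusted p = 0.0273, counted in 3 libraries) of 7 pigment epithelium markers were called higher in the pRPE, and both stalk markers tested, *Pax2* (-5.94, adjusted p = 0.0365) and *Zic4* (-6.94, adjusted p = 0.0273), were called higher in the OS, beside 5.58% of all genes called. The retina marker *Rax*, 1 of 2 tested, was called higher in the pRPE (8.56, adjusted p = 0.0273). Lists for other tissues were sparse as well, with 6 of 10 mesenchyme markers, 5 of 8 blood markers, 2 of 6 retina markers and 2 of 5 endothelium markers at 0 in every library. With amplified material of this kind, fewer cells with a transcript and less RNA per cell cannot be told apart.

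*Mest* was counted in all 30 libraries, with 4711 to 33669 counts each (median 14459). By summed counts its row was the 6th of the nuclear genes, and it held between 0.346% and 2.00% of the nuclear counts of a library (median 1.08%). Each level is the count listed under a symbol, and whether every symbol carries the reads of its own gene was not tested. By mean CPM the rows of *Mmgt2*, *Ltbp3* and *Col19a1* were the 3 highest of those counted in all 30 libraries, and *Esp16* and the olfactory receptor pseudogene *Or52b6-ps1* stood 8th and 9th. With these rows at the top and the pigment genes named above at 0, a rank is a rank of rows, and a 0 does not show that a transcript was absent. *Sgce* was counted in 26 of 30 libraries, with up to 4491 counts (median 948). *Peg10* was counted in 11 of 30 libraries, with 660 counts in all and at most 160 in a library. The 3 rows thus fell into an abundant row counted in every library, a row of intermediate level at 0 in 4 libraries, and a sparse row at 0 in 19 libraries. All further levels are CPM after TMM normalization, a scaling of library sizes by the trimmed mean of gene ratios.

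Levels of different genes were compared per kilobase of exon. Per kilobase, the mean level over the 30 libraries was 1537 CPM for *Mest*, 38.02 for *Sgce* and 1.12 for *Peg10*, so that *Mest* was 40.4-fold above *Sgce*, and *Sgce* 33.8-fold above *Peg10*. The spread between libraries went the other way, with a coefficient of variation of 38.2% for *Mest*, 83.6% for *Sgce* and 186% for *Peg10*. Among the 326 nuclear genes counted in all 30 libraries, the median coefficient was 54.9%, and *Mest* stood 47th from the lowest. Among the 50 of them with the highest mean it stood 15th, with a median of 42.0%. The highest *Mest* library was 4.71-fold above the lowest.

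**Figure D1:**
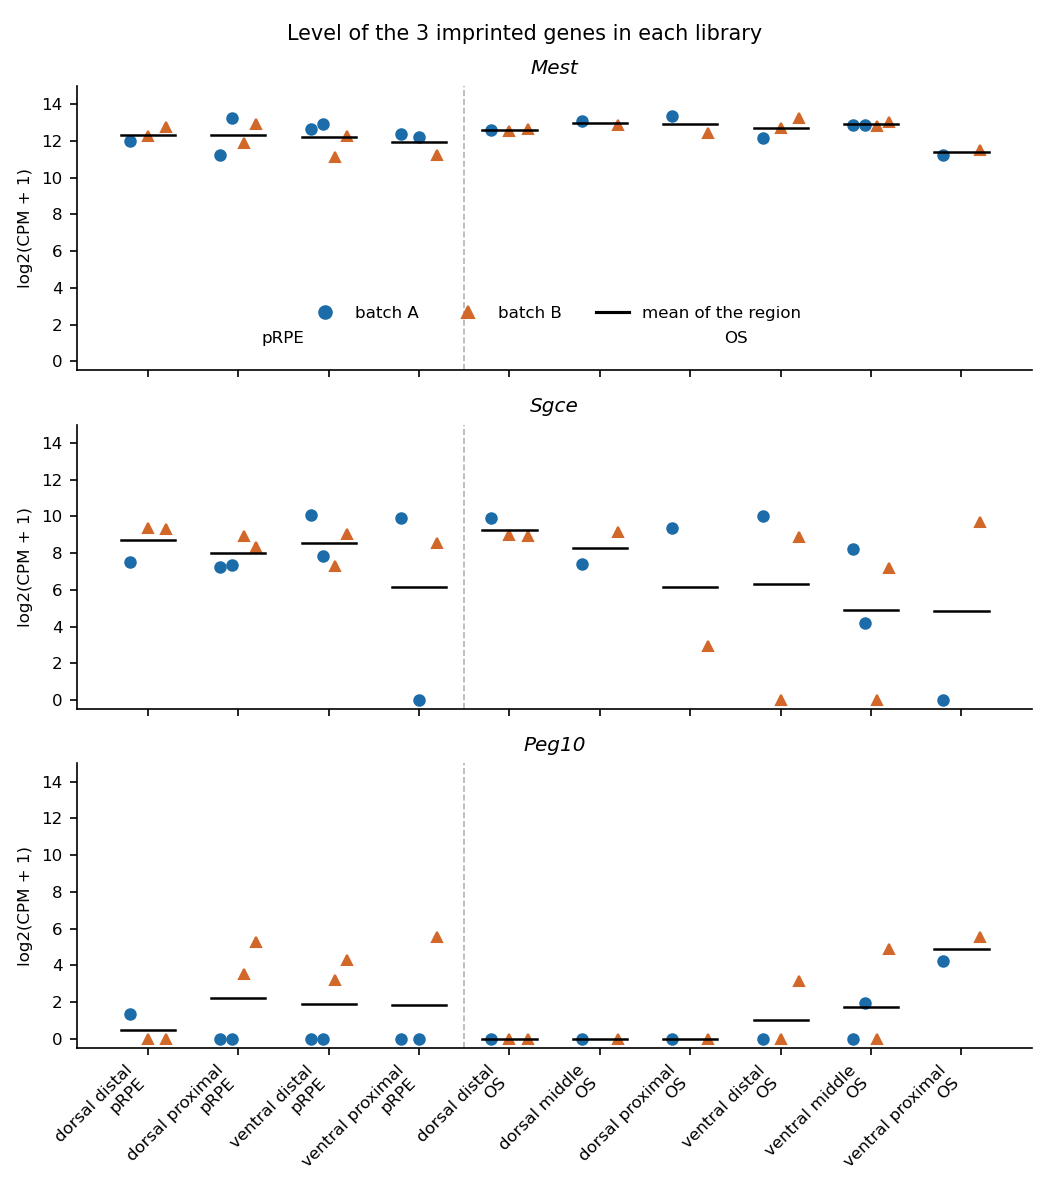
Level of *Mest*, *Sgce* and *Peg10* in each of the 30 libraries, as log2(CPM + 1), by the 10 regions, with pRPE regions left and OS regions right of the dashed line. Circles are batch A and triangles batch B, each point is a library, and the bar is the mean of the region. *Mest* stays high throughout and is lowest in the ventral proximal OS, *Sgce* drops to 0 in 4 ventral libraries, and *Peg10* is at 0 in all 7 dorsal OS libraries.

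In the dorsal OS, *Mest* stood at 5969, 6306 and 6549 CPM in the 3 distal libraries. It stood at 7451 and 8593 CPM in the 2 middle libraries and at 5581 and 10503 CPM in the 2 proximal ones. The dorsal OS thus kept *Mest* between 5581 and 8593 CPM apart from its highest proximal library. In the ventral OS, *Mest* stood at 4588, 6691 and 9715 CPM in the 3 distal libraries and at 7324, 7562, 7571 and 8548 CPM in the 4 middle libraries. The 2 ventral proximal libraries stood at 2461 and 2891 CPM, 1 from each batch, and lay below the other 14 OS libraries, the lowest of which was at 4588 CPM.

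In the dorsal pRPE, *Mest* stood at 4094, 4937 and 6863 CPM in the distal libraries and at 2378, 3769, 7840 and 9799 CPM in the proximal ones. In the ventral pRPE it stood at 2230, 4959, 6418 and 7734 CPM in the distal libraries and at 2461, 4717 and 5412 CPM in the proximal ones. Low and high values were thus found side by side in the same pRPE region. Ordered by mean, the regions ran from the dorsal proximal OS (8042 CPM ± 3481, SD, n = 2), the dorsal middle OS (8022 ± 807, n = 2) and the ventral middle OS (7751 ± 543, n = 4) down to the ventral proximal pRPE (4197 ± 1543, n = 3) and the ventral proximal OS (2676 ± 304, n = 2). Every pair of neighbours in this order differed by less than the larger SD of the pair. The order was not tested.

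Over the tissues, the 16 OS libraries ranged from 2461 to 10503 CPM of *Mest* (median 7008) and the 14 pRPE libraries from 2230 to 9799 (median 4948). The ranges overlapped almost entirely. In edgeR's quasi-likelihood test with dorsal-ventral position and batch in the model, the pRPE was lower by a log2 fold change of -0.40 (SE 0.22, adjusted p = 0.454), with the same sign in batch A alone (-0.21, SE 0.33) and batch B alone (-0.58, SE 0.30). It came to -0.62 with DESeq2 (adjusted p = 0.217) and to -0.63 in edgeR with the number of detected genes in the model (adjusted p = 0.0954). A call needed a log2 fold change past 0.58 together with an adjusted p under 0.05, and *Mest* did not pass in any of these fits. Over all genes tested the median log2 fold change was 0.41 towards the pRPE, so *Mest* stood to the other side of 0.

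By position, the 14 dorsal libraries ranged from 2378 to 10503 CPM of *Mest* (median 6428) and the 16 ventral libraries from 2230 to 9715 (median 5915). The log2 fold change of dorsal against ventral was 0.22 (SE 0.22, adjusted p = 0.716), beside a median of 0.81 over all genes tested, and with the number of detected genes in the model it came to -0.01. Along the other axis, the 13 distal libraries had a median of 6306 CPM and the 11 proximal libraries of 4717, with a log2 fold change of 0.29 (SE 0.28, adjusted p = 1.00 in edgeR). Between the batches the medians were 6362 CPM in A and 6259 in B, with a log2 fold change of 0.16 (SE 0.22, adjusted p = 0.954). Under the additive model the 95% interval of the tissue difference ran from -0.84 to 0.04 and that of the dorsal-ventral difference from -0.21 to 0.65.

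**Figure D2:**
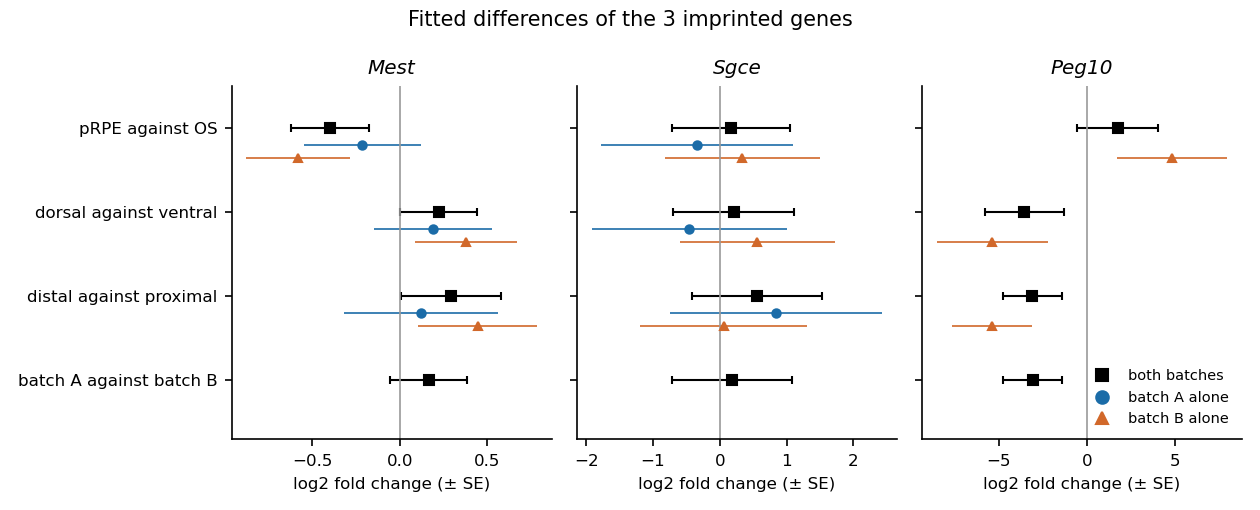
Fitted log2 fold changes of *Mest*, *Sgce* and *Peg10* in the 4 comparisons, with bars of 1 SE. Black squares are the fits over both batches, circles batch A alone and triangles batch B alone; *Peg10* was too sparse to be fitted in batch A, and the horizontal scales differ between the genes. The *Mest* estimates lie within 0.58 of 0 with short bars in the fits over both batches, the *Sgce* estimates lie close to 0 with bars of about 0.9, and the *Peg10* estimates lie beyond 1.7 with bars of 1.7 to 2.3.

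Markers of the tissues were set beside *Mest*. Within the 14 pRPE libraries, *Mest* went with the summed level of the 10 pigment epithelium markers, with a Spearman correlation of 0.83 and a Pearson correlation of 0.80 on the log2(CPM + 1) scale (0.76 without the 2 libraries farthest from the median of the markers). The Spearman correlation was 0.68 in the 7 libraries of batch A and 0.93 in the 7 of batch B. In the 16 OS libraries the Spearman correlation was -0.08 and the Pearson correlation 0.34, or -0.01 without the 2 libraries farthest from the median of the markers. In the 7 OS libraries of batch A the Pearson correlation was 0.67, beside a Spearman correlation of 0.18, and it came to -0.64 without the 2 farthest. Most of the markers' level came from *Slc45a2*, a melanosome transporter, and *Gpnmb*, a melanosome glycoprotein, which had Spearman correlations with *Mest* of 0.72 and 0.80 in the pRPE. *Mitf* had 0.36, *Oca2* 0.35 and *Trpm1*, a cation channel gene, 0.07, so the value of the summed list is mostly that of 2 rows. In the opposite direction, the endothelium list, whose level came almost entirely from *Tek*, had a Spearman correlation of -0.71 with *Mest* in the pRPE (-0.68 in batch A, -0.93 in batch B) and 0 in the OS. In the OS its Pearson correlation was 0.27, or 0.52 without the 2 libraries farthest from the median of the list. The blood list had a Spearman correlation of 0.74 in the pRPE of batch A, beside 0.11 in batch B. These were picked after their values were seen out of 38 relations of *Mest* with marker lists, of which 5 had a Spearman correlation beyond 0.7 in either direction. The points share their library and its scaling. No test was made of these relations, and the part of depth in them was not tested. *Mest* itself had a Spearman correlation of 0.37 with the number of detected genes and -0.07 with the total counts over the 30 libraries.

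**Figure D3:**
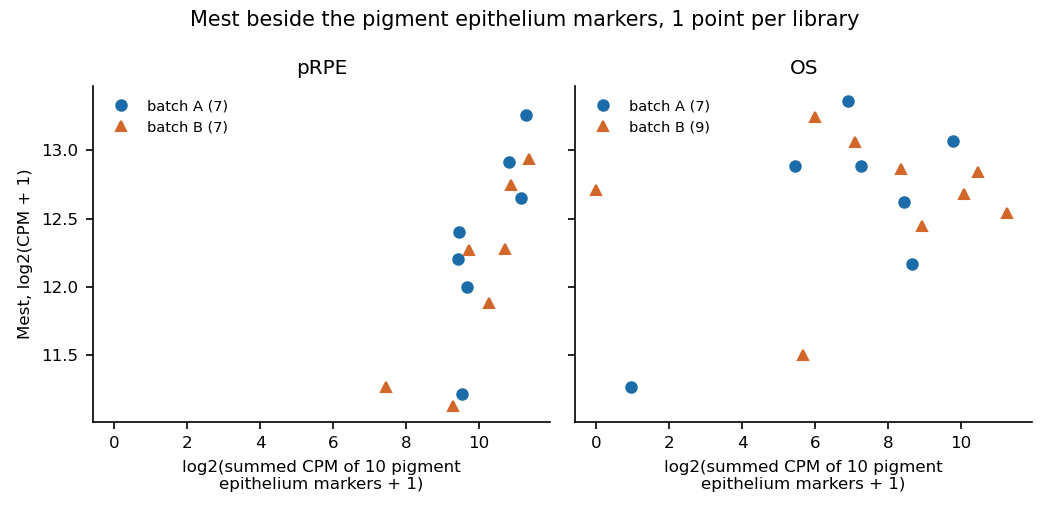
*Mest* (vertical axis, log2(CPM + 1)) against the summed level of 10 pigment epithelium markers (horizontal axis, log2(summed CPM + 1)) in the pRPE (left) and the OS (right), with 1 point per library, circles for batch A and triangles for batch B. *Mest* rises with the markers over the 14 pRPE libraries in both batches, and in the 16 OS libraries the Pearson correlation of 0.34 rests on the 2 libraries farthest from the median of the markers.

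*Sgce* had counts in 13 of 14 pRPE and 13 of 16 OS libraries. In the dorsal OS it stood at 486, 509 and 973 CPM in the distal libraries, at 170 and 565 CPM in the middle and at 6.78 and 652 CPM in the proximal ones. In the ventral OS it stood at 0, 473 and 1031 CPM in the distal libraries, at 0, 17.2, 146 and 300 CPM in the middle and at 0 and 816 CPM in the proximal ones. The dorsal OS had *Sgce* in 7 of 7 libraries and the ventral OS in 6 of 9. In the dorsal pRPE it stood at 183, 639 and 650 CPM in the distal libraries and at 153, 165, 328 and 489 CPM in the proximal ones. In the ventral pRPE it stood at 154, 232, 529 and 1097 CPM in the distal libraries and at 0, 369 and 971 CPM in the proximal ones.

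All 4 libraries without *Sgce* were ventral, 2 from each batch. They held 1957442 to 2952630 total counts and 1730 to 5403 detected genes, with a median of 2567.5 detected genes beside 4374.5 in the 26 libraries with a count. A count of 0 in them allows up to 3 counts, and no molecular identifiers are described, so this limit covers counting error only. Other libraries of the same regions held 36 to 2630 counts. *Sgce* was counted in 14 of 14 dorsal and 12 of 16 ventral libraries, a difference of 25.0 percentage points (two-sided Fisher's exact test, p = 0.103, adjusted p = 0.505), where the median gene differed by 15.2 points in the same direction.

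Ordered by the mean, the dorsal distal OS was highest for *Sgce* (656 CPM ± 275, SD, n = 3), followed by the ventral distal pRPE (503 ± 428, n = 4) and the ventral distal OS (502 ± 516, n = 3), and the ventral middle OS was lowest (116 ± 139, n = 4). The 4 distal regions held the first 4 places. Neighbours in the order differed by less than the larger SD, except the dorsal proximal pRPE (284 ± 158, n = 4) and the ventral middle OS below it, whose ranges overlapped. The log2 fold changes of *Sgce* were 0.17 for pRPE against OS (SE 0.88, adjusted p = 0.984 in edgeR) and 0.21 for dorsal against ventral (SE 0.90, adjusted p = 0.971). The dorsal-ventral value ranged from 0.00297 (without dorsal distal OS replicate 33) to 0.46 (without ventral proximal OS replicate 90), and was 0.67 with the library block. For distal against proximal the value was 0.56 (SE 0.97, adjusted p = 1 in edgeR), with 0.84 in batch A alone and 0.0590 in batch B alone. Single libraries moved it between 0.38 (without ventral distal pRPE replicate 6) and 0.999 (without ventral proximal OS replicate 90), and it was 1.12 with the library block. For batch A against B the value was 0.19 (SE 0.90, adjusted p = 0.990 in edgeR). The 95% interval of the tissue difference ran from -1.56 to 1.91. In batch A alone *Sgce* was lower in the pRPE (-0.34, SE 1.44) and in dorsal libraries (-0.45, SE 1.46), the opposite sign of both pooled values.

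*Peg10* was listed at 0 in all 7 dorsal OS libraries, 3 distal, 2 middle and 2 proximal. In the ventral OS it had counts in 5 of 9 libraries, with 22 counts in 1 of 3 distal libraries, 6 and 85 counts in 2 of 4 middle libraries and 37 and 149 counts in both proximal libraries. In the dorsal pRPE it had 5 counts in 1 of 3 distal libraries and 38 and 84 counts in 2 of 4 proximal libraries. In the ventral pRPE it had 28 and 46 counts in 2 of 4 distal libraries and 160 counts in 1 of 3 proximal libraries. *Peg10* was therefore present in both tissues and on both sides, and the dorsal OS was the combination of tissue and side in which it was not counted.

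Libraries with and without *Peg10* overlapped in depth, with 2106 to 9886 detected genes (median 4738) and 1957442 to 6041021 total counts in the 11 libraries with a count and 1730 to 9315 detected genes (median 4158) and 1421918 to 5400977 total counts in the 19 without. In the dorsal OS, 3 counts would have corresponded to at most 1.65 CPM. The mean of the ventral OS was 11.5 CPM ± 16.4 (SD, n = 9) and its median 2.86 CPM. The mean was 9.39-fold the mean limit of 3 counts per library in the dorsal OS (1.22 CPM, n = 7), and 5.83-fold without ventral proximal OS replicate 90, the highest library. Replicates 88, 89 and 90 of the ventral OS, all of library block 4, held 22, 85 and 149 counts, beside 6 and 37 in the others with a count. The limit covers counting error only, and the fold without that block was not tested. The number of libraries with a count, 0 of 7 against 5 of 9, had p = 0.0337 in a two-sided Fisher's exact test, but adjusted p = 1 over the 8337 genes. This comparison was added after the values were seen. No gene was called in it (0%), and 173 genes had an unadjusted p under 0.05.

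Whether the dorsal-ventral difference of *Peg10* depended on tissue was tested by a product term in the same model, also added after the values were seen. The term was 7.57 on the log2 scale (SE 2.48, adjusted p = 0.0785 in edgeR), and its size rests on a group at 0, so it depends on the prior count of the fit. It did not pass the threshold. No gene was called for this term by edgeR (0% of 8337), although 1738 had an unadjusted p under 0.05 and DESeq2 called 770, with an adjusted p of 0.260 for *Peg10*. That 0 depended on the settings: edgeR called 272 genes with TMMwsp scaling, 264 without the batch, 209 without mitochondrial genes and 292 without a filter, and 228, 252 and 261 without ventral distal pRPE replicates 66 or 86 or ventral proximal pRPE replicate 87. *Peg10* was not among the calls in any of these fits. For *Mest* the term was 0.11 (SE 0.46, adjusted p = 1) and for *Sgce* -0.97 (SE 1.85, adjusted p = 1). In single batches the *Mest* term had opposite signs, -0.85 in A (SE 0.66) and 0.90 in B (SE 0.56). That of *Sgce* was -2.64 in A (SE 2.69) and 0.0879 in B (SE 2.38).

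In the 4 comparisons of level *Peg10* did not pass the threshold either. By tissue it had counts in 6 of 14 pRPE and 5 of 16 OS libraries, with a log2 fold change of 1.73 (SE 2.28, adjusted p = 0.879). This value was 3.16 without the batch in the model, and leaving out single libraries moved it between 0.97 (without dorsal proximal OS replicate 65) and 2.49 (without ventral proximal pRPE replicate 7). By side it had counts in 3 of 14 dorsal and 8 of 16 ventral libraries, with a log2 fold change of -3.55 (SE 2.24, adjusted p = 0.467), which ranged from -4.47 (without dorsal proximal pRPE replicate 82) to -2.46 (without ventral proximal OS replicate 40). Along the other axis it had counts in 4 of 13 distal and 5 of 11 proximal libraries, with a log2 fold change of -3.09 (SE 1.68, adjusted p = 0.588). Single libraries moved it between -5.52 (without dorsal distal pRPE replicate 31, adjusted p = 0.180) and -1.32 (without ventral proximal OS replicate 40). The 3 highest libraries by count were proximal or middle ventral ones, at 160, 149 and 85 counts, and 84 counts were found in a dorsal proximal pRPE library. By the mean, the ventral proximal OS was highest (31.9 CPM ± 20.2, SD, n = 2), followed by the ventral proximal pRPE (15.2 ± 26.4, n = 3) and the dorsal proximal pRPE (11.9 ± 17.6, n = 4), all within the larger SD of the next.

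Between the batches *Peg10* was counted in more libraries of B, which passed no adjusted threshold, while a permutation test of log2(CPM + 1) gave an unadjusted p of 0.0261. It had counts in 3 of 14 batch A libraries (5, 6 and 37 counts) and in 8 of 16 batch B libraries (22 to 160 counts), with a log2 fold change of -3.07 for A against B (SE 1.67, adjusted p = 0.497). Leaving out single libraries gave -4.47 (without ventral proximal OS replicate 40, adjusted p = 0.170) to -2.26 (without dorsal proximal pRPE replicate 82). In the pRPE this was 1 of 7 against 5 of 7 libraries, and in the OS 2 of 7 against 3 of 9. Of the batch B libraries with a count, replicates 62 and 66 were of library block 3, at 38 and 28 counts. Replicates 82, 86, 87, 88, 89 and 90 were of block 4, at 84, 46, 160, 22, 85 and 149 counts, so most of the batch B counts lay in that block. The difference between blocks was not tested. Batch A was too sparse for *Peg10* to be fitted alone. In batch B alone the log2 fold changes were 4.82 for pRPE against OS (SE 3.13, adjusted p = 0.998), -5.36 for dorsal against ventral (SE 3.15, adjusted p = 0.416) and -5.38 for distal against proximal (SE 2.27, adjusted p = 1.00). Within batch B, counts were found in 2 of 8 dorsal and 6 of 8 ventral libraries, and in batch A in 1 of 6 and 2 of 8.

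The counts of calls over all genes give the background for the 3 members, of which none was called in any comparison. For pRPE against OS, 465 of 8337 genes were called (5.58%), or 58 with the library block in place of the batch, and for dorsal against ventral, 680 genes (8.16%). For batch A against batch B, 291 genes were called (3.49%). That count fell to between 9 and 89 without any 1 of the 14 batch A libraries (9 without ventral proximal OS replicate 40), and to between 10 and 12 without dorsal proximal OS replicate 65, ventral middle OS replicate 69, dorsal proximal pRPE replicate 82 or ventral proximal OS replicate 90 of batch B. For distal against proximal, edgeR called 0 genes (0%), with 862 at an unadjusted p under 0.05 and 501 called by DESeq2. Beside these shares, which moved with the settings, 0 of 3 called does not set the members apart from the other genes tested.

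The number of libraries with a count was tested in the same 4 comparisons by two-sided Fisher's exact tests, and no gene was called in any (0% in each). At an unadjusted p under 0.05 there were 905 genes for pRPE against OS, 875 for dorsal against ventral, 125 for distal against proximal and 148 for the batches. *Mest*, counted everywhere, could not differ. *Peg10* differed by 11.6 percentage points between pRPE and OS (Fisher's exact p = 0.707), where the median gene differed by 12.5 points. It differed by -28.6 points both for dorsal against ventral and for batch A against B (Fisher's exact p = 0.142 in each, adjusted p = 0.575 and 1). The median gene differed by 15.2 and -1.79 points in these. For distal against proximal *Peg10* differed by -14.7 points (Fisher's exact p = 0.675), beside -2.80 for the median gene. *Sgce* differed by 11.6 points between pRPE and OS (Fisher's exact p = 0.602), by 10.5 points for distal against proximal and by -1.79 points for the batches.

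*Sgce* and *Peg10*, which start 99 bases apart, were compared library by library. Both had counts in 10 libraries, *Sgce* alone in 16, *Peg10* alone in 1 and neither in 3. The library with *Peg10* alone was ventral proximal OS replicate 40, at 37 counts. In the 10 libraries with both, *Sgce* was above *Peg10* per kilobase in every one, by 3.19- to 73.3-fold (median 11.4-fold). Over the 30 libraries the Spearman correlation of the pair was -0.10, with -0.51 in batch A (n = 14) and 0.07 in batch B (n = 16), and *Mest* had -0.02 with *Sgce* and -0.27 with *Peg10*.

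The genes whose CPM went most closely with each member over the 30 libraries were taken from 4443 genes that passed the filter with counts in at least 10 libraries. For *Mest* they were *Get4* (Spearman 0.62), *Cnksr1* (0.62) and *Prob1* (0.61), for *Peg10* they were *Spi1* (0.68), *Phtf1* (0.62) and *Fis1* (0.59), and for *Sgce* they were *Ccdc171* (0.69), *Map3k3* (0.67) and *Thoc1* (0.67). The median over all genes was 0.11 for *Mest*, 0.03 for *Peg10* and 0.09 for *Sgce*. No member was among the 3 closest of another. These values describe the highest of many correlations between sparse counts that share their libraries.

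Other imprinted genes were looked at as a list of 26 further paternally expressed and 28 maternally expressed genes. Of the paternally expressed genes, 7 had no count in any library, 12 had counts in 1 to 9 libraries and 7 in 10 or more. Of the maternally expressed genes, 6 had no count, 14 had counts in 1 to 9 libraries and 8 in 10 or more. *Dlk1*, a Notch pathway ligand homologue, *Nnat*, a membrane proteolipid of neural tissue, and *Dio3*, a thyroid hormone deiodinase, were listed at 0 throughout, as was *Cdkn1c*, a cyclin-dependent kinase inhibitor, in a table that lists 55.3% of its nuclear genes at 0. *Igf2*, a fetal growth factor, had 2 counts in all and *H19*, its neighbouring non-coding RNA, 95 counts in 1 library. These 6 were named after their values were seen. By the counts listed under each symbol, the row of *Mest* was above all 54 of these per kilobase, followed by the maternally expressed transporter gene *Slc22a18* at 145 CPM per kilobase in 27 libraries.

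**Figure D4:**
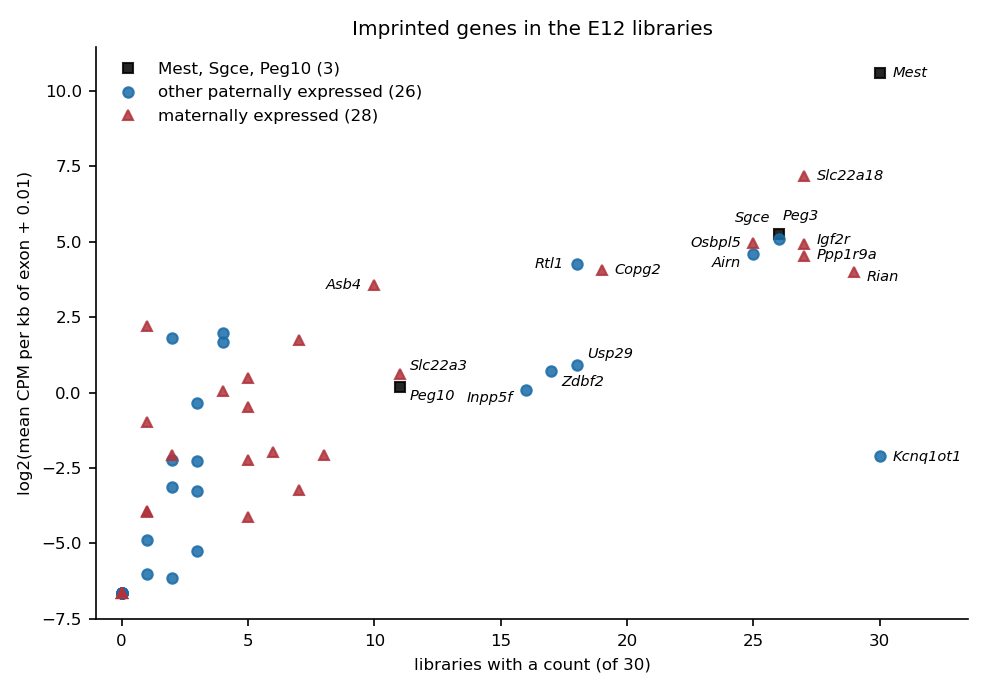
The 3 members, 26 other paternally expressed and 28 maternally expressed genes by the number of libraries with a count (horizontal axis, of 30) and the mean level as log2(mean CPM per kilobase of exon + 0.01). Genes with counts in at least 10 libraries are named. *Mest* stands apart at the top right, *Sgce* lies among genes counted in 25 to 29 libraries, and *Peg10* lies beside *Slc22a3* at 11 libraries.

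Among paternally expressed genes with counts in at least 10 libraries, *Peg3*, a zinc finger protein gene, was counted in 26 libraries at a mean of 33.9 CPM per kilobase, close to *Sgce*, and *Usp29* beside it was counted in 18 at 1.89. *Airn*, the antisense RNA of *Igf2r*, was counted in 25 libraries at 23.9 CPM per kilobase and *Rtl1*, a retrotransposon-derived gene like *Peg10*, in 18 at 19.3. *Kcnq1ot1*, a long non-coding RNA, was the only other member of these lists with a count in all 30 libraries, at 0.221 CPM per kilobase. *Zdbf2* (17 libraries, 1.63 CPM per kilobase) and *Inpp5f* (16 libraries, 1.06) were close to *Peg10* in level. Of the maternally expressed genes, *Igf2r*, a receptor that clears IGF2, was counted in 27 libraries at 30.2 CPM per kilobase and the non-coding *Rian* in 29 at 15.8. *Airn* and *Igf2r* overlap on opposite strands, as do *Kcnq1ot1* and *Kcnq1*, so reads of these overlaps cannot be told apart without strand. *Osbpl5* (25 libraries, 30.9 CPM per kilobase) and *Slc22a3* (11 libraries, 1.52) completed the genes outside chromosome 6. The highest *Osbpl5* library stood at 1789 CPM, beside a mean of 152 and a median of 81.1 CPM.

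None of the 15 named genes was called in any comparison, beside 5.58% of all genes tested for pRPE against OS, 8.16% for dorsal against ventral, 0% for distal against proximal and 3.49% for the batches, so the count does not set them apart. Of the list members that passed the filter, 8 paternally and 12 maternally expressed, the median log2 fold changes for pRPE against OS were 0.59 and 0.65, beside 0.41 over all genes. For dorsal against ventral they were 1.24 and 1.37, beside 0.81 over all genes. Called in the dorsal direction were *Grb10*, a growth factor receptor adaptor, at 5.55 (adjusted p = 0.0166) and *Mirg*, a non-coding RNA, at 7.36 (adjusted p = 0.0166), counted in 4 and 5 libraries. These are 2 of the 20 list members that passed the filter, near the share of 8.16% over all genes. The level of *Grb10* came mostly from 1 library at 239.9 CPM, beside a mean of 9.43 over the 30 libraries. *Grb10* was also called higher in batch A, at 4.997 (adjusted p = 0.0426). Both fall outside the rule for named genes and were named after their values were seen.

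The rows next to the members on the chromosome were looked at last. Beside *Mest*, *Copg2*, one of the maternally expressed genes, was counted in 19 libraries at 16.7 CPM per kilobase, and *Cep41*, a centrosomal protein gene, in 16 at 20.6. Of the 9 rows beside *Mest*, 1 had no count and 6 had counts in fewer than 10 libraries. The 6 that passed the filter and were tested held no call. Beside *Peg10* and *Sgce*, all 13 rows had a count and 8 had counts in 10 or more libraries. Of these, *Casd1*, an acetyltransferase gene next to *Sgce*, was counted in 26 libraries at 60.0 CPM per kilobase, and *Ppp1r9a*, a neuronal scaffold protein gene on the other side of *Peg10*, in 27 at 22.8. *Bet1* (28 libraries, 121 CPM per kilobase) and *Gng11* (23 libraries, 217 CPM per kilobase) were above *Sgce*, while *Col1a2*, a fibrillar collagen (22 libraries, 13.1), *Pon2* (15 libraries, 14.5), *Pon3* (11 libraries, 13.1) and *Asb4* (10 libraries, 11.9) were below it. *Peg10* was lowest per kilobase among its neighbours with counts in 10 or more libraries. The 9 of these 13 rows that were tested held no call either. Beside the 5.58%, 8.16%, 0% and 3.49% of all genes called in the 4 comparisons, 0 calls in so few rows do not set the neighbours apart. The lowest adjusted p was that of *Asb4* for batch A against B, with a log2 fold change of 6.49 (adjusted p = 0.0666), from counts in 10 libraries.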

How the data were processed

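RNA of 30 E12 control Geo-seq libraries was analysed. Per the labels, HISAT2, StringTie and the GRCm38 build were used by the authors, who deposited a table of estimated counts (expected counts), 1 row per gene symbol, not normalized. The study's methods name StringTie for quantifying normalized expression, and how the deposited counts were made and the annotation release are not given in the sources used here. Of the values, 270 in 63 genes were not whole and were rounded. Deposited symbols were placed with GENCODE M21, which held 49083 of the 56484, and exon lengths came from it.

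The members and gene lists were chosen with earlier results of these data known. Genes with more than 10 counts in at least 3 libraries (8337) entered the TMM-normalized quasi-likelihood test of edgeR 4.0.16 (R 4.3.3), with tissue, dorsal-ventral position and batch in the model for all 30 libraries, and with distal-proximal position added for the 24 distal or proximal libraries. P-values were adjusted by the Benjamini-Hochberg method over all genes tested, and a call needed a log2 fold change past 0.58 and an adjusted p under 0.05. Each SE is the log2 fold change divided by the square root of the F statistic. The number of libraries with a count was compared by Fisher's exact test, adjusted in the same way. The edgeR test of the tissue difference was also run on simulated counts with known changes, and its outcome is not given here. Named beside the members were listed imprinted genes and neighbouring rows with a count in at least 10 libraries, and the 3 genes with the highest Spearman correlation with each member. Python 3.11.15, numpy 2.4.6, scipy 1.17.1, pandas 2.3.3 and matplotlib 3.10.9 were used.

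The alternatives were DESeq2 1.42.0, TMMwsp, no filter, genes counted in at least 15 libraries, no mitochondrial genes, detected genes as covariate, no batch, the library block in place of the batch, a permutation test of log2(CPM + 1) with 100000 resamples, counting thresholds of 3 and 10, and leaving out each library. The product of tissue and side, each batch alone and the dorsal against the ventral OS were added after seeing the data. With 1421918 to 6041021 counts per library, limits of 3 counts cover counting error only.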

Additional observations from a re-analysis of the deposited data

Results flagged for a closer look

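In the 9 tests that could be made in regions of 4 libraries, 1 value stood apart from the others of its region. *Peg10* in the ventral middle OS was at 28.7 CPM in replicate 89, whereas the other 3 libraries were at 0, 0 and 2.86 CPM. The gap to the nearest library was 0.900 of the whole range. Chance gives such a value in about 1 of 20 groups of normally distributed values, and the rate for counts as sparse as these was not measured.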

How the results depend on the processing

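No member was called by edgeR or DESeq2 under any alternative run (lowest adjusted p 0.0636, for *Peg10* in the product of tissue and side). Of 591 tests of a member under an alternative, 569 kept their sign and their side of the threshold. The sign turned in 19, and the other 3 are permutation tests, which have no adjusted p. *Sgce* for pRPE against OS came to -0.0172 with DESeq2 and -0.34 in batch A alone, and to -0.0361 to 0.42 when single libraries were left out. For dorsal against ventral it came to -0.45 in batch A alone, and with detected genes as a covariate *Mest* was at -0.0107 and *Sgce* at -0.00124. For the batches *Sgce* ranged from -0.0239 to 0.43 without single libraries and was at -0.20 in the permutation test of log2(CPM + 1). The product for *Mest* was -0.0483 with DESeq2, -0.0342 with genes counted in at least 15 libraries, -0.0308 with detected genes, -0.85 in batch A alone and -0.11 to 0.28 without single libraries, and for *Sgce* it was 0.0879 in batch B alone. In that permutation test *Peg10* was under an unadjusted 0.05 for dorsal against ventral (-1.44, p = 0.0422), distal against proximal (-1.63, p = 0.0473) and the batches (-1.67, p = 0.0261). Genes called for pRPE against OS numbered 294 with DESeq2, 716 without a filter, 0 with genes counted in at least 15 libraries, 58 with the library block in place of the batch, and 0 in batch A alone and 0 in batch B alone. For dorsal against ventral they numbered 0 with genes counted in at least 15 libraries and 0 in batch A alone, against 827 of 6361 in batch B alone. For distal against proximal they numbered 501 with DESeq2 and 16 without a filter. For the batches they numbered 116 without a filter, 5 with genes counted in at least 15 libraries, 593 with detected genes, and 9 (without ventral proximal OS replicate 40) to 281 without single libraries. For the product they numbered 770 with DESeq2, 272 with TMMwsp, 292 without a filter, 209 without mitochondrial genes, 264 without the batch, and 0 to 261 without single libraries. By the share of libraries, 1 gene was called for pRPE against OS with more than 10 counts. The cause of these changes was not tested. *Peg10* could not be fitted with genes counted in at least 15 libraries or in batch A alone, and the batch comparison could not be run without the batch or with the block. The library numbers form blocks in which the last digit goes with the region, and these were checked for pairing. Libraries of the same block had deviations from their region means that correlated at 0.0213 on average in 103 pairs (range -0.0805 to 0.183), and those of different blocks at -0.00694 in 299 pairs. Averages near 0 over sparse counts cannot decide whether a block is an embryo, and the block was used only as an alternative. No member was called with the block, as in the main fit.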
